A study of Mus musculus with 4 samples.

Results

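Semaphorins, their plexin receptors and the neuropilin co-receptors form a guidance signalling family, taken here by gene symbol (classes 3 to 7 of the semaphorins, plexins A to D, and both neuropilins). The rule matched 31 of the 17721 genes in the deposited table, 20 semaphorins and 11 receptors. No expression value entered the choice of a member, but the family was taken up with the fall of Sema3d in this contrast already known. For that reason Sema3d is described without a test, and the other members' tests are read gene by gene and lend no support to the family. RNA was sequenced from dispase-treated back skin, described in the series as epidermal lysates, of C57BL/6 mice at postnatal day 63. There were 2 libraries from wild type and 2 from LDB2-/- mice, where Ldb2 is an adaptor that binds LIM domain transcription factors. The labels do not say how the allele was made or in which cells it acts, nor whether a library came from 1 mouse or several, so p-values measure only the spread between these libraries.

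Semaphorins are ligands that share an extracellular sema domain. Class 3 members are secreted, classes 4 to 6 span the membrane, and Sema7a is held at the cell surface by a GPI anchor. Plexins are the signalling receptors, whose cytoplasmic part acts on small GTPases and so on the cytoskeleton and on adhesion. Most class 3 semaphorins reach plexins A and D through a neuropilin, whereas membrane semaphorins bind plexins directly. In skin the family is known for steering sensory nerves and vessels and for contacts between keratinocytes, resident T cells and melanocytes.

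The total count was 57517162 to 67307536 in wild type and 54095522 to 68436842 in LDB2-/- libraries. Ldb2 itself had 0 and 8 counts in wild type, against 0 and 0 in LDB2-/-, too few to check the genotype labels. Keratinocyte markers were present in all 4 libraries, and the makeup of the samples differed by genotype. As summed counts per 1000000 of the library scaled by edgeR's TMM factors (scaled CPM), 5 basal keratinocyte markers ran from 21658 to 23204 in wild type and from 10317 to 10433 in LDB2-/-. The 5 suprabasal markers ran from 20059 to 24357 and from 3709 to 4057, and the 5 growing hair markers from 100.7 to 357 and from 64763 to 77579, in the same order. All 5 basal and all 5 suprabasal markers were called lower and all 5 hair markers higher. In such bulk samples fewer cells of a type and less RNA per cell cannot be told apart, and what part these shifts have in the results below was not tested.

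Of the 31 members, 22 passed the expression filter (an FPKM, fragments per length and depth, of 1 or more in at least 2 libraries) and were tested. Of these, Sema3b, Sema3d, Sema6c and Sema6d reached the filter in 1 genotype only, so that they had to differ, and they are left out of the counts of calls in this paragraph. With edgeR's quasi-likelihood test, 7 of the other 18 were called higher and 5 lower in LDB2-/- at an adjusted p under 0.05, and 6 did not pass. Over all 12400 genes tested, 57.2% were called, 28.4% higher and 28.8% lower, so that a call by itself is common in this comparison. The genotypes did not overlap in scaled CPM for 16 of the 18 members, against 82.5% of all genes. At a change of 2-fold or more, 6 members were called higher and 3 lower, where 29.6% of all genes were called, 13.4% higher and 16.2% lower. All 3 secreted semaphorins in this count were lower. The membrane semaphorins had 4 of 8 higher and 1 lower, and the receptors 3 of 7 higher and 1 lower. The median log2 fold change (LDB2-/- over wild type, throughout) was -1.54 for secreted semaphorins, 0.42 for membrane semaphorins and 0.55 for receptors, beside -0.01 for all genes tested, the same with the 4 members and without them. These medians are descriptions, and the difference between the roles was not tested.

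**Figure D1:**
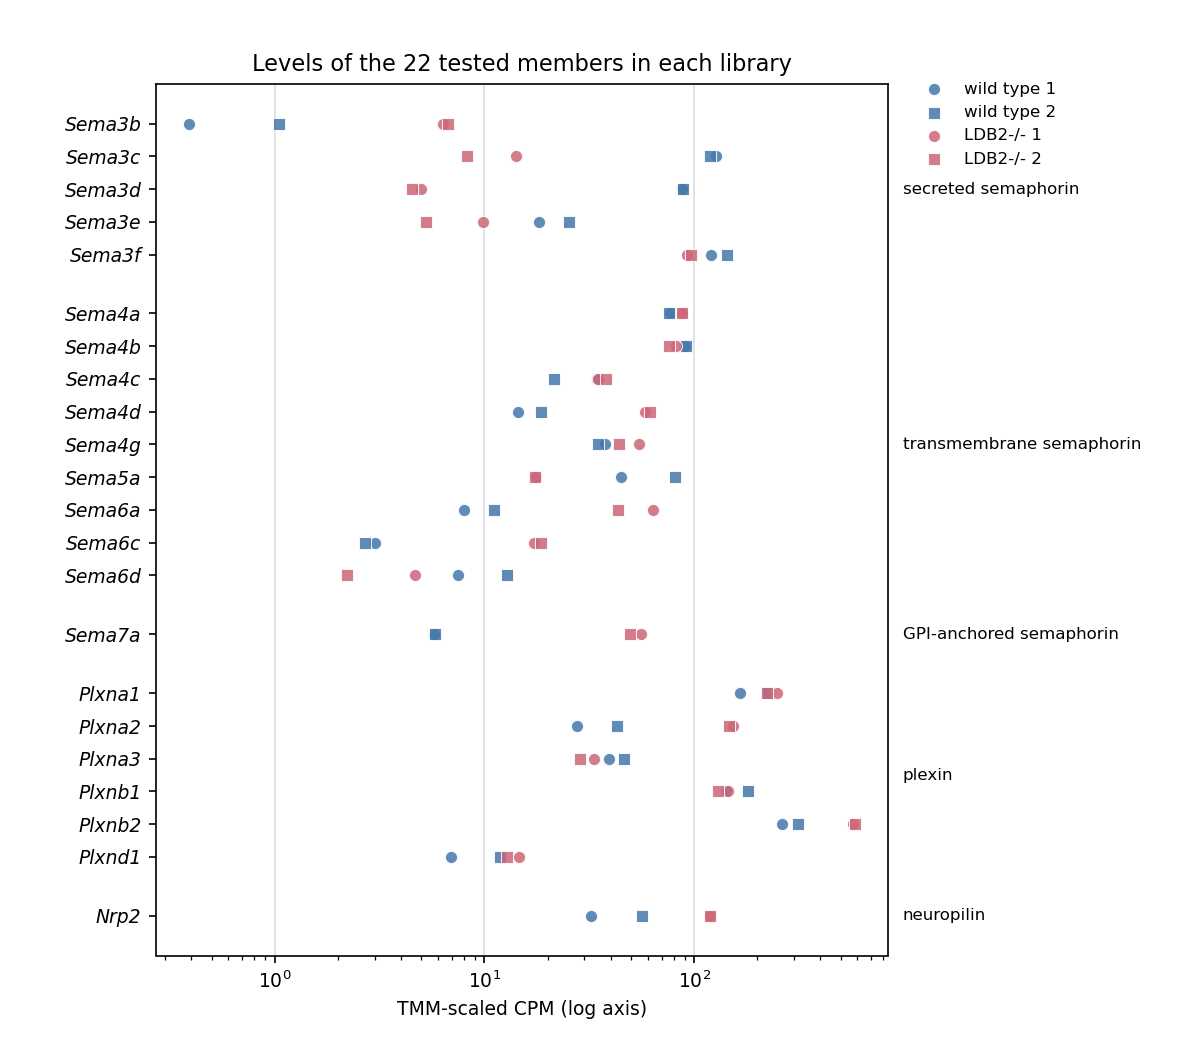
Scaled CPM (log axis) of the 22 tested members in the 4 libraries, grouped by role, with wild type in blue and LDB2-/- in red. Sema3c and Sema3d lie far to the left in LDB2-/-, Sema7a, Sema6a and Plxna2 far to the right, and Plxna1 and Plxnb1 overlap between the genotypes.

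The secreted semaphorins were the role with the deepest falls. Sema3d (gene ID 108151, chromosome 5, 12383161 to 12588953), a guidance ligand known from vein and nerve patterning, was at 87.9 and 88.5 scaled CPM in wild type, against 4.96 and 4.52 in LDB2-/-. Both LDB2-/- libraries were far below both wild type libraries, and the replicates of each genotype lay close together, for a log2 fold change of -4.22 (SE 0.13). Sema3c (gene ID 20348, chromosome 5, 17574816 to 17730268), best known from the cardiac outflow tract, was at 127.8 and 119.2 in wild type, against 14.1 and 8.24 in LDB2-/-. It fell by 3.47 log2 units (SE 0.27, adjusted p = 0.000341), and its LDB2-/- libraries differed more from each other than its wild type libraries did.

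Sema3e (gene ID 20349, chromosome 5, 14025276 to 14256689), which unlike its relatives can bind plexin D1 without a neuropilin, was at 18.2 and 25.3 in wild type, against 9.79 and 5.26 in LDB2-/-. It fell by 1.54 (SE 0.34, adjusted p = 0.0120). Sema3f (gene ID 20350, chromosome 9, 107681499 to 107710475), a ligand that prefers neuropilin 2, was at 119.8 and 143.1 in wild type, against 92.6 and 96.8 in LDB2-/-. Its fall was the smallest of the 4, at 0.47 log2 units (SE 0.13, adjusted p = 0.0225), and the call was lost without wild type replicate 2 (adjusted p = 0.0730) and without LDB2-/- replicate 1 (adjusted p = 0.0868). Sema3b (gene ID 20347, chromosome 9, 107597674 to 107609241) went the other way, from 0.391 and 1.05 in wild type to 6.35 and 6.69 in LDB2-/-. Its fitted log2 fold change was 3.18 (SE 0.50), from only 29 and 68 counts in wild type to 315 and 398, and was 4.05 without wild type replicate 2. In the fit with no filter, which does not select on its level in LDB2-/-, Sema3b was 3.16 higher (adjusted p = 0.00582).

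Position on the chromosome was not part of the rule. Sema3d, Sema3a, Sema3e and Sema3c lie in that order within 5347 kb of chromosome 5. The 3 of them that were tested are the 3 with the deepest falls among tested secreted members. Sema3d is among these 3, and its fall was known beforehand. This stretch holds 52 RefSeq genes, the 4 semaphorins included. Only 3 others were in the deposited table and 0 of those passed the filter, so there was no neighbour to compare. Sema3b and Sema3f are 72.3 kb apart on chromosome 9 and moved in opposite directions. Between their outer ends the carrier gene Slc38a3 was called higher and Gnai2 was not called.

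The start-site sequences of the 2 tested members that fell furthest are shown because the 2 genes moved alike while these stretches differ in composition. Each is the 250 bases before the transcription start that the RefSeq table uses, 5′ to 3′ on the gene's plus strand (RefSeq, GRCm38.p6, the assembly behind mm10), at chr5:12382916-12383165 for Sema3d and chr5:17574566-17574815 for Sema3c. That start is the first base of the gene for Sema3c and lies 5 bases inside the gene for Sema3d. Capitals mark GGGCGG, the core of an SP1 site, on either strand.
Sema3d: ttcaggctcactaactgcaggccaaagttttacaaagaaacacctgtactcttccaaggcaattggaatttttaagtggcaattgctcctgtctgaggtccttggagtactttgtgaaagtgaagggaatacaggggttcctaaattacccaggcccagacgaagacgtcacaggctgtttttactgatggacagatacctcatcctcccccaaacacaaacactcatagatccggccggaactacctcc
Sema3c: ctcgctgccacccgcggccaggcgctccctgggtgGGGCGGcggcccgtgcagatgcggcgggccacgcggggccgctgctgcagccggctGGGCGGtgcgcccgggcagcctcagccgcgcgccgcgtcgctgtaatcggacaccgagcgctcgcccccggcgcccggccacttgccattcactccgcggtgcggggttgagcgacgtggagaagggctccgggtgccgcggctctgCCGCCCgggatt
The Sema3d stretch had a GC content of 46.8% with 4 CG dinucleotides, and the Sema3c stretch 78.4% with 39. Sema3c held 3 SP1 cores and Sema3d held 0. Across the 26 members with an entry, which had 37 such windows, 73.0% held an SP1 core, against 32.7% of all 32851 windows. The median GC content of the members' windows was 64.0% against 52.4%, and the motif itself is made of G and C. TAATTA, the core bound by LIM homeodomain proteins, was in 0 of the 37 windows and in 4.84% of all windows. It is made of A and T, while the members' windows are richer in G and C. CTTTGA, the core of a LEF/TCF site, was in the windows of Nrp2 and Sema3e, 5.41% of the members' windows against 13.8% of all. TGANTCA, the AP-1 core, was in 8.11% of the members' windows and 6.75% of all. Both strands were searched, and these matches describe letters, not binding. No motif was compared between windows of like GC content. Plxna1, Plxna4, Sema3b, Sema3f and Sema6a had no entry.

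Among tested membrane semaphorins the largest change was in Sema7a (gene ID 20361, chromosome 9, 57939596 to 57962865). This GPI-anchored member binds plexin C1 and integrin beta 1 and is known to act on melanocyte adhesion. It was at 5.74 and 5.83 scaled CPM in wild type, against 56.1 and 49.4 in LDB2-/-. Sema7a rose by 3.19 log2 units (SE 0.15, adjusted p = 0.000104), a 9.10-fold rise far outside the spread within either genotype. Its receptor Plxnc1 was under the filter, with 336 and 438 counts in wild type, against 374 and 347 in LDB2-/-, and Itgb1, the integrin subunit, fell by 0.76 (SE 0.11, adjusted p = 0.00280). The melanocyte markers also moved with genotype. All 5 of 5 were called higher, with a sum of 26.3 to 46.6 scaled CPM in wild type and 1194 to 1362 in LDB2-/-, and their part in the rise of Sema7a was not tested.

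The same 250 bases are shown for Sema7a (chr9:57939862-57940111, plus strand, RefSeq, GRCm38.p6). Among tested members it had the largest fitted rise, at 3.19 beside 3.18 for Sema3b. Sema5b (3.98) and Sema3g (3.47), under the filter, had larger fitted values with no filter. Capitals mark CAGCTG, an E-box, and GGGCGG. The start this entry uses, 57940112, lies 516 bases inside the gene, so the stretch falls within the annotated gene and not upstream of its first base.
Sema7a: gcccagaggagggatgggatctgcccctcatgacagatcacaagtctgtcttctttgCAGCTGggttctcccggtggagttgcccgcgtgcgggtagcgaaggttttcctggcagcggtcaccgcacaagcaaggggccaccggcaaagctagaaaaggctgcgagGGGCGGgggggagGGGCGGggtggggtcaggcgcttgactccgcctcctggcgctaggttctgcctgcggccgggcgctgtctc
This stretch had a GC content of 66.4%, 1 E-box 193 bases before the start and 2 SP1 cores at 84 and 71 bases. An E-box of these letters was in 16.2% of the members' windows and in 13.0% of all windows, on both strands alike since it is its own reverse complement.

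Class 6 members differed in direction. Sema6a (gene ID 20358), a ligand of plexins A2 and A4, was at 8.01 and 11.1 in wild type, against 64.0 and 43.2 in LDB2-/-, a rise of 2.48 (SE 0.26, adjusted p = 0.000881). Sema6c (gene ID 20360, chromosome 3, 95160420 to 95174050) was at 3.01 and 2.69 in wild type, against 17.2 and 18.6 in LDB2-/-, a log2 fold change of 2.65 (SE 0.21). With no filter Sema6c was 2.62 higher (adjusted p = 0.000527). Sema6d (gene ID 214968, chromosome 2, 124089943 to 124667789), a ligand of plexin A1, went from 7.44 and 12.8 to 4.65 and 2.22. Its log2 fold change was -1.56 (SE 0.45), and -1.59 with no filter (adjusted p = 0.0360). Leaving out wild type replicate 2 gave -1.12 (adjusted p = 0.0802 with the filter), and leaving out LDB2-/- replicate 1 gave -2.18, so that single libraries moved its size. Sema5a (gene ID 20356, chromosome 15, 32244813 to 32696341), which carries thrombospondin repeats beside its sema domain, was at 44.8 and 81.1 in wild type, against 17.6 and 17.4 in LDB2-/-. It fell by 1.85 (SE 0.28, adjusted p = 0.00315), and its wild type libraries were far apart while its LDB2-/- libraries were nearly equal.

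Class 4 held the most abundant membrane members, and among its 5 tested members Sema4d and Sema4g were called, both higher. Sema4d (gene ID 20354, chromosome 13, 51685529 to 51793678), also called CD100 and known on lymphocytes, binds plexins B1 and B2 and the lymphocyte protein CD72. It was at 14.5 and 18.7 in wild type, against 58.4 and 61.8 in LDB2-/-, a rise of 1.86 (SE 0.16, adjusted p = 0.000492). T cell markers also moved with genotype. Of the 4 measured, 3 were called lower and 0 higher, and none was at 0. Their sum was 125.9 to 138.6 in wild type and 46.2 to 61.7 in LDB2-/-, and their part in the values of Sema4d was not tested. Sema4g, a plexin B2 ligand, was at 37.6 and 34.7 in wild type, against 54.8 and 44.0 in LDB2-/- (log2 fold change 0.45, SE 0.15, adjusted p = 0.0428). That call was lost in 12 of 17 alternatives, among them the library total alone (adjusted p = 0.501). Also among the 12 were the fits without wild type replicate 1 (log2 fold change 0.51), wild type replicate 2 (0.39) or LDB2-/- replicate 1 (0.29).

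The remaining class 4 members did not pass, which does not show that they were equal. Sema4a was at 76.6 and 75.6 in wild type, against 87.1 and 87.6 in LDB2-/- (0.20, SE 0.10, adjusted p = 0.135), and its difference was negative with the library total alone (-0.12) and with limma on FPKM. Sema4b was at 90.7 and 91.6 against 81.6 and 75.9 (-0.21, SE 0.10, adjusted p = 0.131), and was called lower with the library total alone (-0.53, adjusted p = 0.0113). Sema4c, a plexin B2 ligand, was at 34.3 and 21.6 against 34.7 and 38.2 (0.38, SE 0.23, adjusted p = 0.208). It was called higher without wild type replicate 1 (0.76, adjusted p = 0.0138). These 3 genes lie within small differences whose sign or call follows the scaling or 1 library.

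**Figure D2:**
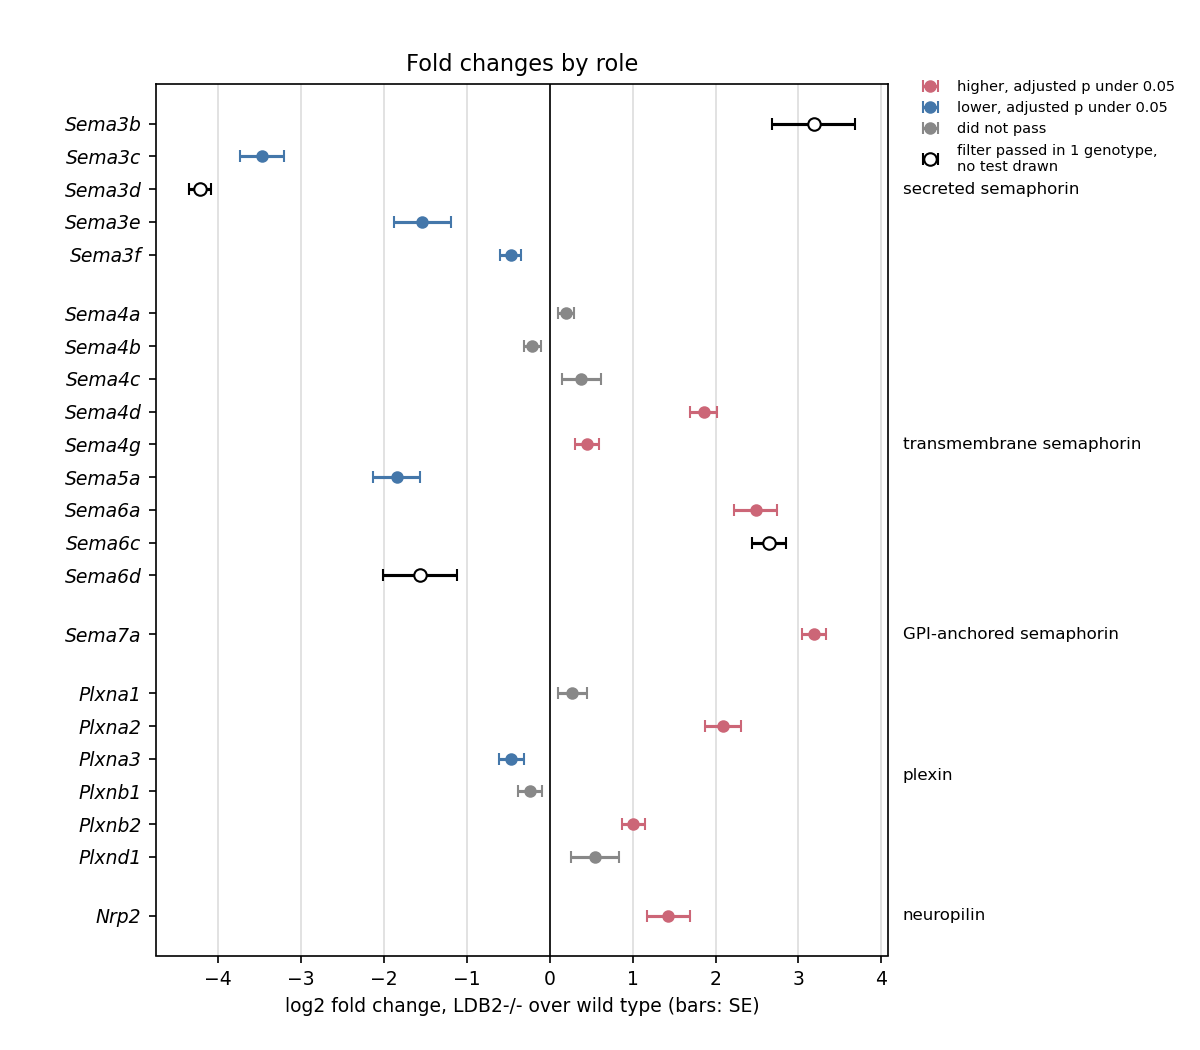
Log2 fold changes of LDB2-/- over wild type with their standard errors, by role, coloured by whether edgeR's adjusted p was under 0.05, with Sema3b, Sema3d, Sema6c and Sema6d as open points with no test. Secreted members lie between -4.22 and 3.18, membrane members between -1.85 and 3.19, and receptors between -0.46 and 2.09.

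Among the receptors the called rises were in Plxna2, Plxnb2 and Nrp2. Plxna2 (gene ID 18845, chromosome 1, 194619791 to 194816869), a receptor for class 6 semaphorins, was at 27.7 and 42.9 in wild type, against 153.9 and 147.1 in LDB2-/-. It rose by 2.09 (SE 0.22, adjusted p = 0.000857). Plxnb2 (gene ID 140570, chromosome 15, 89155546 to 89182018), a receptor for class 4 semaphorins, was at 261.4 and 311.6 in wild type, against 570.2 and 583.5 in LDB2-/-. It rose by 1.01 (SE 0.14, adjusted p = 0.00217). Nrp2 (gene ID 18187, chromosome 1, 62703317 to 62818692), the co-receptor of Sema3f that also binds vascular growth factors, was at 32.2 and 56.4 in wild type, against 119.7 and 119.2 in LDB2-/-. It rose by 1.43 (SE 0.26, adjusted p = 0.00580), with both LDB2-/- libraries above the higher wild type library.

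Plxna3 (gene ID 18846, chromosome X, 74328290 to 74344689), known with class 3 ligands, was the 1 receptor called lower, from 39.2 and 46.4 to 33.4 and 28.7. It fell by 0.46 (SE 0.15, adjusted p = 0.0399), and the call was lost without wild type replicate 2 (adjusted p = 0.148) and without LDB2-/- replicate 2 (adjusted p = 0.181). Plxna1, a receptor shared by class 3 and class 6 ligands, was at 165.1 and 226.3 in wild type, against 249.9 and 223.5 in LDB2-/-, with overlap (0.27, SE 0.17, adjusted p = 0.224). Its sign turned with the library total alone (-0.04) and with limma on FPKM, and it was called higher without wild type replicate 2 (0.52, adjusted p = 0.0238). Plxnb1, a receptor for Sema4d, was at 142.7 and 181.2 against 144.8 and 130.02, also with overlap (-0.24, SE 0.15, adjusted p = 0.217). It was called lower with the library total alone (-0.55, adjusted p = 0.0319) and without wild type replicate 1 (-0.40, adjusted p = 0.0458). Exons of Plxna1 and Plxnb1 overlap a gene on the opposite strand in the GENCODE M21 annotation, and reads of such pairs cannot be separated without strand.

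Plxnd1, the receptor of Sema3e best known in vessels, was at 6.93 and 11.9 in wild type, against 14.5 and 12.9 in LDB2-/- (0.55, SE 0.29, adjusted p = 0.162). It was called higher without wild type replicate 2 (0.98, adjusted p = 0.0245). Endothelial markers were low but higher in LDB2-/-, with a sum over 7 genes of 4.75 to 8.40 in wild type and 49.8 to 55.2 in LDB2-/-, 4 of 4 tested called higher and none at 0. Their part in the values of Plxnd1 and Nrp2 was not tested.

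The other 9 members were under the FPKM filter and so not in the main test, with at most 438 counts in a library. Nrp1, the co-receptor of Sema3a, had 109 and 213 counts in wild type, against 301 and 274 in LDB2-/-, or 1.47 and 3.30 against 6.06 and 4.61 scaled CPM. Sema3a, the classical repellent of sensory axons, had 6 and 10 counts in wild type, against 0 and 0 in LDB2-/-. Scaled for depth, its wild type level was 4.19-fold that of 3 counts over the LDB2-/- group. This value leaves out counting error in wild type, and Sema3a was not called in the edgeR fit with no filter (adjusted p = 0.120). Sema3g had 7 and 14 counts against 79 and 114, Sema5b 0 and 5 against 32 and 37, Sema6b 13 and 23 against 22 and 58, and Plxna4 8 and 6 against 24 and 26. Sema4f had 32 and 85 against 2 and 32, and Plxnb3 4 and 16 against 4 and 0. With no filter 1 of the 9, Sema3g, was called (higher, adjusted p = 0.0124), in that same fit, which called 40.8% of 17721 genes. Nrp1 had an adjusted p = 0.0893 there, and Plxnc1 an adjusted p = 0.560 (log2 fold change 0.22). In the authors' deposited table all 12 members called among the 18 passed an adjusted p of 0.05 in the same direction, 0 of the 6 others tested did, and Sema3g and Sema5b passed among the untested. That comparison is of the same 4 libraries, so its agreement is no separate support. The share of all genes that passed in it was not counted.

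Levels of different genes are compared per length, as deposited FPKM, which carries no TMM scaling. Plxnb2 was the highest member in both genotypes, at 48.4 ± 6.70 in wild type and 78.3 ± 1.55 in LDB2-/- (mean ± SD, n = 2, as in the following values). In wild type Sema3f came next at 42.7 ± 5.86, not separate from Plxnb2, followed by Sema3c at 27.3 ± 0.95, Sema4a at 26.0 ± 0.083 and Sema4b at 25.3 ± 0.54, each of these 3 without overlap with the one before it. Plxna1 came after them at 23.8 ± 5.60, and its wild type libraries (19.9 and 27.8) overlapped those of Sema3c, Sema4a and Sema4b. In LDB2-/- the order below Plxnb2 was Sema3f at 24.9 ± 0.20, Sema4a at 23.8 ± 0.86, Plxna1 at 23.1 ± 2.75 and Sema4b at 17.6 ± 1.62. There Plxna1 overlapped both Sema3f and Sema4a. Sema4b was separate from those above it but overlapped Nrp2, the next below. Sema3c went from rank 3 to rank 16 of 31 and Sema3d from rank 8 to rank 23. Sema7a went from rank 17 to rank 7 and Plxna2 from rank 15 to rank 9.

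Summed by role, the FPKM of the 7 secreted semaphorins was 84.2 and 93.0 in wild type, against 31.6 and 29.3 in LDB2-/-, lower in both. Sema3f made up 45.8% and 50.4% of this sum in wild type, against 79.3% and 84.5% in LDB2-/-. The 4 secreted members on chromosome 5 together went from 45.5 and 45.8 to 4.54 and 2.66. This sum and that of all secreted members hold Sema3d, whose fall was known beforehand, so they lend no support of their own. The sum of the 12 transmembrane members overlapped, at 81.6 and 85.0 against 89.3 and 79.6, while single members within it rose and fell. As scaled CPM the same sum did not overlap, at 317.8 and 351.7 against 421.2 and 390.96. The plexins summed to 92.2 and 119.0 in wild type, against 139.5 and 128.4 in LDB2-/-. Without Plxnb2 the log2 ratio of the genotypes' plexin sums was -0.04 in place of 0.34. Both ratios are on FPKM without TMM scaling, and limma on log2(FPKM + 0.1) had an all-gene median of -0.33. As scaled CPM the whole plexin sum had a log2 ratio of 0.64. That ratio without Plxnb2 was not computed, so these values do not show whether the rise rests on Plxnb2. The neuropilins summed to 6.00 and 11.4 against 18.9 and 17.04, and Nrp2 was at least 94.6% of that sum in every library.

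**Figure D3:**
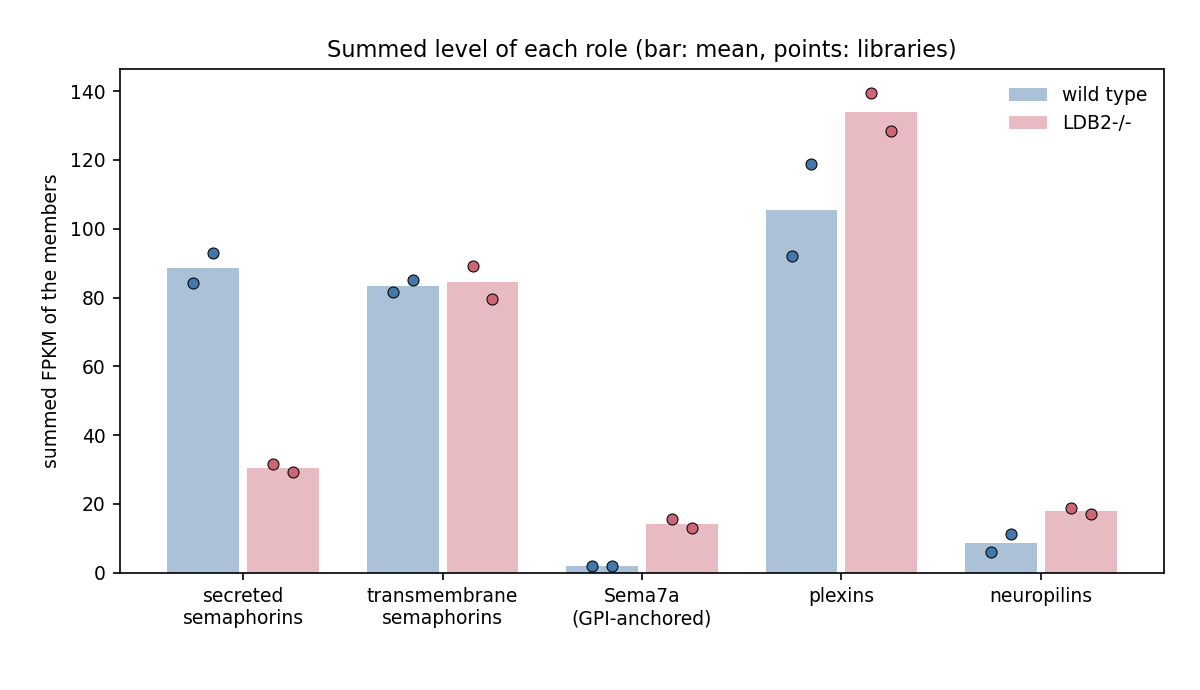
Summed FPKM of each role, with bars for the mean and points for the 2 libraries of each genotype. The secreted semaphorins fall from between 84.2 and 93.0 to between 29.3 and 31.6, and the transmembrane semaphorins stay between 79.6 and 89.3.

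Ratios of members within a library do not depend on how libraries are scaled to each other. The secreted to membrane semaphorin ratio of summed FPKM was 1.01 and 1.07 in wild type, against 0.301 and 0.317 in LDB2-/-. The ratio of all semaphorins to all receptors was 1.71 and 1.38 in wild type, against 0.861 and 0.837 in LDB2-/-, so that receptors were the larger sum in LDB2-/- alone. Within the plexins, Plxna2 over Plxna1 was 0.137 and 0.155 against 0.504 and 0.538, and Plxnb2 over Plxnb1 was 2.42 and 2.28 against 5.22 and 5.98. Within the membrane ligands, Sema7a over Sema4b was 0.0762 and 0.0767 against 0.828 and 0.784, and Sema4d over Sema4b was 0.140 and 0.180 against 0.624 and 0.707. For each of these 6 ratios the genotypes did not overlap, as in scaled CPM for 82.5% of all genes tested. The ratios restate changes given above, the known fall of Sema3d among them, and are no separate support.

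Several members differed between the replicates of 1 genotype. In wild type 7 of the 22 tested members differed by more than 1.5-fold between the replicates, against 8.57% of all genes tested, and 6 of the 7 were higher in replicate 2. They were Sema4c, which was higher in replicate 1, and Sema3b, Sema5a, Sema6d, Plxna2, Plxnd1 and Nrp2. The sum of growing hair markers was also higher in wild type replicate 2 (357 against 100.7), and its part in these members' spread was not tested. In LDB2-/- 3 members, Sema3c, Sema3e and Sema6d, differed that much, all higher in replicate 1, against 9.78% of all genes.

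Of a list of 61 partners and effectors of semaphorin signalling, 60 were in the table and 49 were tested, with 11 called higher and 14 lower, or 51.0% against 57.2% of all genes. Of the 49, Mras and Dpysl2 passed the filter in 1 genotype only. Among neuropilin partners and ligands Chl1, an adhesion molecule that associates with neuropilin 1, was at 141.7 and 127.3 in wild type, against 16.9 and 11.8 in LDB2-/-, and fell by 3.23 (SE 0.20, adjusted p = 0.000194). The growth factor Vegfa fell by 1.86 (SE 0.23, adjusted p = 0.00150), and Gipc1, which binds the neuropilin 1 tail, rose by 0.99 (SE 0.12, adjusted p = 0.00156). Of 4 tested plexin partners the receptor kinases Mst1r (-2.82) and Met (-1.67), which associate with plexins B, fell, and 2 did not pass. Both tested receptors outside the plexins fell, Cd72 (-1.57), a partner of Sema4d, and Itgb1. Among proteases that process or shed semaphorins Pcsk6 rose by 1.40, Adam10 fell by 0.62, and 4 did not pass.

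Cytoskeletal effectors had 6 of 16 tested members higher and 2 lower, the kinases Rock1 (-1.23) and Gsk3b (-0.64). The kinase Fyn, which acts below plexins A, was at 10.3 and 13.1 in wild type, against 68.1 and 67.3 in LDB2-/-, and rose by 2.53 (SE 0.16, adjusted p = 0.000194). The oxidoreductases Mical1 and Mical3, which bind plexins and disassemble actin filaments, rose by 1.99 and 1.65. Of 17 GTPases and their regulators 3 were higher and 5 lower. The lower ones were Rap1b (-1.08), Sh3bp1 (-1.03), Rras2 (-1.01), Rap1a (-0.52) and Arhgef11 (-0.51). The GTPase Rnd2 rose by 2.77 (SE 0.16, adjusted p = 0.000166), and Farp1, an exchange factor that associates with plexins A, rose by 1.99. Its relative Farp2 was at 6.03 and 8.11 in wild type, against 16.02 and 14.96 in LDB2-/-, and rose by 1.13. With the library total alone 23 genes of the list were called lower in place of 14, and 5096 in place of 3576 over all 12400 genes tested.

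**Figure D4:**
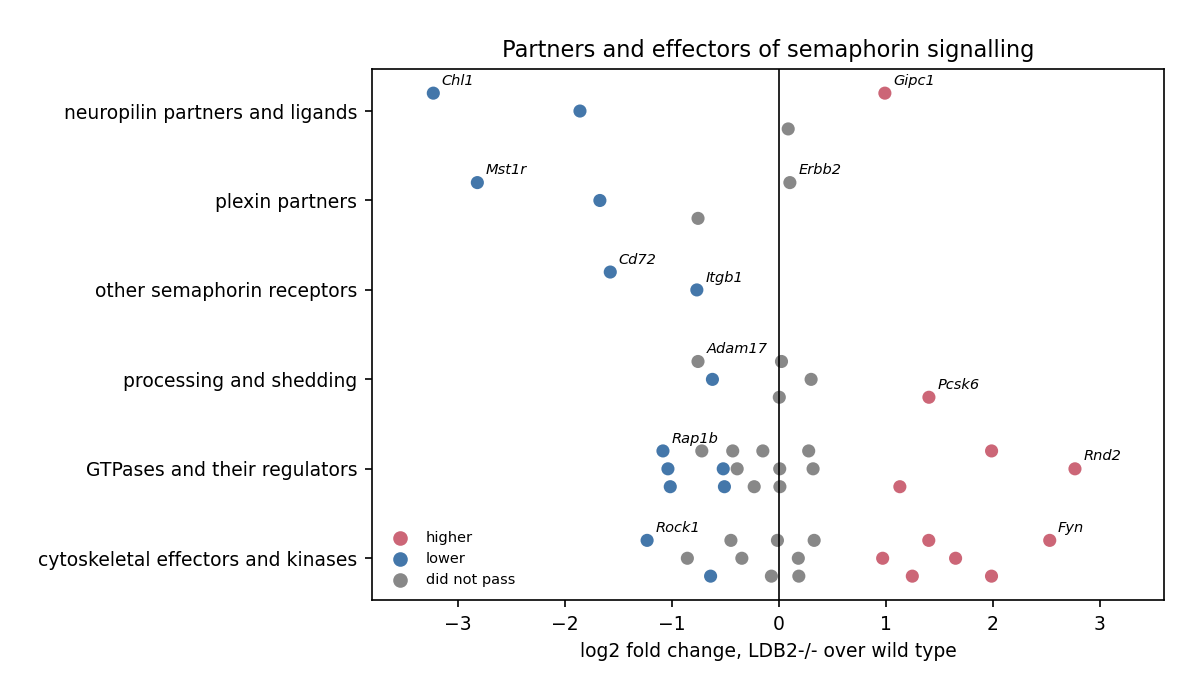
Log2 fold change of the 49 tested partners and effectors by subgroup, red where called higher, blue where called lower and grey where not called, with the lowest and highest gene of each subgroup named. Chl1 at -3.23 and Rnd2 at 2.77 are the extremes.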

How the data were processed

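The data were one table of the whole series with 4 RNA-seq libraries. Listed in the submitters' processing notes are HISAT2 2.1.0, StringTie 1.3.4d and bcl2fastq 1.8.4 with the build mm10, without settings, and strandedness is not given in the sources used here. The authors deposited raw read counts per gene, FPKM, and log2 values normalized between libraries by a method the headers do not name, as the headers say (per the file headers). Their own comparison, deposited by the authors, holds a signed fold change, treated as a score, and deposited adjusted p-values.

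Counts were tested with edgeR 4.0.16 (R 4.3.3): TMM scaling, a quasi-likelihood F test, two-sided, adjusted by the Benjamini-Hochberg method over 12400 genes, those reaching an FPKM of 1 in 2 or more libraries. The standard error is that implied by the F statistic, and the biological coefficient of variation was 0.194. Scaled CPM of untested genes used the same factors, which ran from 0.872 to 1.13. A count of 0 allows up to 3 counts, which is 0.0404567 to 0.0604357 scaled CPM, for counting error only.

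Members, the partner list and the marker lists were chosen with earlier results of these data known. Named were all members, and up to 3 called genes of largest absolute change per partner subgroup. For the cytoskeletal effectors and the GTPases the genes called lower are named as well, added after their values were seen. Sequences at start sites are those of the tested members with the largest change in each direction. That of Sema3c was added after its values were seen, as were Slc38a3, Gnai2, Mras and Dpysl2. For members that passed the filter in 1 genotype only, the adjusted p is from the fit with no filter, a choice made after their values were seen. The Schwann, macrophage, Langerhans, fibroblast, muscle, smooth muscle, adipocyte and neuron marker lists were computed and are given in the closing section. Protein sequences were not used here. Alternatives used limma 3.58.1, DESeq2 1.42.0, other filters, scalings and pseudocounts (0.1, 1 and 5), the replicate number as a block, and each library left out. Limma on the authors' normalized values and the crossed block were added after seeing the data. Figures used Python 3.11.15 with pandas 2.3.3 and matplotlib 3.10.9.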

Additional observations from a re-analysis of the deposited data

How the results depend on the processing

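Of the 18 members that passed the filter in both genotypes, 9 kept their direction and their side of the threshold under all alternatives that could be fitted (Sema3c, Sema3e, Sema4d, Sema5a, Sema6a, Sema7a, Plxna2, Plxnb2 and Nrp2). The counts of members below cover all 22 tested, so they include the 4 that the filter let through in 1 genotype only. Those 4 had to differ, Sema3d among them, so the counts show only how calls move with a setting and lend no support. In the main fit the 18 had 7 higher and 5 lower, and their counts under other settings were not made. Scaling by the library total took the all-gene median from -0.01 to -0.33 (log2 fold change) and the calls from 3521 higher and 3576 lower to 2248 and 5096, and those of members from 9 and 7 to 8 and 9. Limma on log2(FPKM + 5) called 5409 genes lower. Sema4a was negative with the library total (-0.12) and with limma at pseudocounts 1, 0.1 and 5 (-0.12, -0.12 and -0.10), as was Plxna1 (-0.044, then -0.030, -0.030 and -0.027). With a mean FPKM of 5 or more, which tests fewer genes, 5 members were higher and 4 lower, beside 2517 and 2584 of 8567 genes tested. With a library left out 1 genotype keeps a single library, so counts of calls from those fits are not given. The medians from those fits are given below.

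The partner list had 23, 24, 22 and 23 genes lower with the library total and with limma at pseudocounts 1, 0.1 and 5. Over all genes the same settings called 5096, 5350, 5214 and 5409 lower. The secreted median was -1.84, -1.19 and -0.67 with the library total and limma at pseudocounts 1 and 5, -0.94 on the authors' normalized values, -3.55 with a mean FPKM of 5 or more, and -2.04 to -1.15 with a library left out. The membrane median was 0.10, 0.094, 0.10 and 0.065 with the library total and limma at pseudocounts 1, 0.1 and 5, and the receptor median 0.23, 0.16, 0.25 and 0.057. With a library left out they ranged from 0.29 to 0.63 and from 0.21 (without wild type replicate 1) to 0.98 (without wild type replicate 2).

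Without its most abundant member, the log2 ratio of summed FPKM went from -1.54 to -3.05 for secreted semaphorins, from 0.21 to 0.33 for membrane semaphorins and from 0.34 to -0.038 for plexins. With every member kept, the ratio as summed scaled CPM was 0.43 for membrane semaphorins and 0.64 for plexins. It was not computed as scaled CPM without the most abundant member. With a library left out the ratio ranged from 0.17 to 0.54 for plexins and from 0.66 to 1.59 for neuropilins, where it was 1.05, both highest without wild type replicate 2.

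The labels do not say whether same-numbered libraries were paired. Their deviations had a correlation of -0.14 across 12400 genes. With 2 libraries per genotype and genes that are not independent, this cannot settle whether they were. With the replicate number as a block 8 members were higher and 5 lower, 2916 and 3176 over all genes, and Sema3f, Sema4g and Plxna3 were not called. Crossing the numbers gave 8 and 7 members, 3678 and 3591 over all genes. The causes of these shifts were not tested. Members under 3 counts per library, as Sema3a in LDB2-/-, are limited by depth.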

Other observations

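Other cell type markers, which share these libraries with the members, gave the following sums of scaled CPM, wild type first. The 6 fibroblast markers summed to 44.8 to 79.4 and 182.4 to 238.3, with 4 of 4 tested higher. The 5 skeletal muscle markers summed to 0.820 to 0.971 and 37.5 to 45.8, all higher. The 5 Schwann cell markers summed to 65.0 to 67.2 and 49.9 to 51.7, with 1 of 3 tested higher and 1 lower. The 5 macrophage markers summed to 81.3 to 88.2 and 72.7 to 92.02, with 3 higher and 2 lower, and the 4 Langerhans cell markers to 1215 to 1254 and 863 to 983, with 2 lower. The 5 smooth muscle and pericyte markers summed to 3.56 to 3.78 and 58.9 to 67.8, mostly Acta2, with Myh11 at 0 in wild type and Rgs5 at 0 in LDB2-/-. The 3 adipocyte markers in the table summed to 1.19 to 2.58 and 700.5 to 741.4, nearly all Fabp4, with Adipoq at 0 in wild type and Plin1 at 0 in LDB2-/-. The 2 neuron markers in the table summed to 0.499 to 1.76 and 147.8 to 168.3, nearly all Tubb3, with Rbfox3 at 0 in wild type. The tissue these lists name was not separated from the epidermis by any label.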
